A study of Mus musculus with 8 samples.

Results

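Gpx1, Sepw1, 2700094K13Rik (the gene of selenoprotein H, named Selh here), Selk and Msrb1 (also named Sepx1) are 5 mouse genes that encode selenoproteins linked to stress responses, whose synthesis is known to be sensitive to selenium supply. They were chosen by gene symbol, and all 5 have a line in a table of 7500 genes. The table holds ribosome footprints of liver, that is, the stretches of mRNA that ribosomes shield from nuclease. Livers were taken from male wild-type FVB/N mice that had received a torula yeast diet from weaning for 6 weeks. In 1 group the diet had no selenium added (0 Se, 2 mice, 4 libraries), and in the other it had 0.1 ppm selenium as sodium selenite (0.1 Se, 2 mice, 4 libraries). Each mouse thus gave 2 libraries, and whole tissue was used. The abundance in the table is the authors' average over the libraries of both diets, so no value of a single mouse, no SD and no depth of a library accompanies it. The question of the study, how the diets differ, was answered by the authors in other columns, which were not used here. The text below therefore gives the abundance of each gene, the length behind it and the place of its UGA, and no difference between the diets.

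Selenium acts in these proteins as selenocysteine, an amino acid that is inserted at a UGA codon. A UGA otherwise ends translation, and it is read as selenocysteine only when a hairpin in the 3′ untranslated region recruits a dedicated elongation factor and a dedicated tRNA. Where selenocysteine is scarce, ribosomes stop at the UGA, and an mRNA whose UGA lies well upstream of its last exon junction can then be degraded as if it carried a premature stop codon. The Gpx1 mRNA is a known case of this decay in selenium deficiency.

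The UGA and its surroundings are shown first, since its place decides what a footprint on each gene can report. Each line gives 12 coding bases on either side of the UGA, written 5′ to 3′ in mm9 on the coding strand with the UGA, spelled TGA, in capitals. The Selk line is shorter because its coding sequence ends 9 bases after the UGA.
Gpx1: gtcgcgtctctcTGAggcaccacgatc
Sepw1: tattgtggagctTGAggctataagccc
Selh: cattgtacgagcTGAcgcgtgtacggc
Msrb1: caatcaagattcTGAatatttagcagc
Selk: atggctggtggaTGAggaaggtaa
The base after the UGA, which is known to affect how readily it is read as a stop, was G in 3 of the 5 genes (Gpx1, Sepw1 and Selk), C in Selh and A in Msrb1. Sepw1 and Selh both had the cysteine codon TGT 3 codons before the UGA. This spacing forms the redox motif of a cysteine, any 2 residues and a selenocysteine that is known from thioredoxin-like selenoproteins. None of the other 3 genes had a cysteine codon there, and it was found before the first UGA in 0 of the 7 other selenoprotein genes examined. Sepp1, which is among these 7, has 10 UGA codons within its coding sequence, and its later ones were not examined for this. Beyond the UGA itself the surroundings had little in common, with at most 9 identical bases of 24 for any pair of genes whose lines are of full length.

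Gpx1 encodes the main cytosolic glutathione peroxidase, which reduces hydrogen peroxide with glutathione. The gene lies at chr9:108241607-108242671 on the plus strand, and its UGA is codon 47 of 201, at chr9:108241782-108241784, in the coding part of exon 1 of 2. The distance from the UGA to the only exon junction was 105 bases. Sepw1 encodes selenoprotein W, a small thioredoxin-like protein of the cytosol, and lies at chr7:16502557-16507751 on the minus strand. Its UGA is codon 13 of 88, at chr7:16505813-16505815, in the coding part of exon 2 of 6, with 243 bases to the last junction. Of the 5 genes, these had the smallest share of codons before the UGA, 22.9% in Gpx1 and 13.6% in Sepw1.

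Selh, at chr2:84509375-84510927 on the minus strand, encodes a nuclear thioredoxin-like protein. Its UGA is codon 38 of 116, at chr2:84510538-84510540, in exon 2 of 4 of the longest transcript, with 31.9% of its codons before the UGA. Over its 3 annotated transcripts with this coding sequence, the UGA lay 136 to 266 bases before the last junction. Msrb1 encodes a methionine sulfoxide reductase, which repairs oxidised methionine, and lies at chr17:24873587-24879723 on the plus strand. Its UGA is codon 95 of 116, at chr17:24877103-24877105, in exon 3 of 4, and 34 to 66 bases before the last junction over 2 transcripts. Selk encodes a membrane protein of the endoplasmic reticulum, and lies at chr14:30781494-30788260 on the plus strand. Its UGA is codon 92 of 94, at chr14:30786626-30786628, in exon 4 of 5 and 5 bases before the last junction. In all 5 genes the UGA thus lay before the last exon junction of the annotated transcripts. The distance was longest in Sepw1 and Selh and shortest in Selk. Of the 7 other selenoprotein genes examined, 4 had their first UGA before the last junction and 3 (Txnrd1, Txnrd3 and the single-exon gene Sephs2) had no junction after it.

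The coding sequence that was counted differs from the whole. Per the study's methods, footprints on the first 15 and the last 3 codons were left out. The length deposited for each of the 5 genes was 60 bases, or 20 codons, below its annotated coding sequence, and the same held for 7093 of 7263 listed genes with an annotated coding sequence (97.7%). The deposited length is therefore that of a trimmed coding sequence. It is 2 codons shorter than leaving out 15 and 3 codons gives, and which codons these are is not stated; a start and a stop codon left out as well would account for them, which is an inference. The region of the methods is described below, and values for the shorter one are set beside it. The deposited lengths were 546 bases for Gpx1, 291 for Selh and for Msrb1, 225 for Selk and 207 for Sepw1. All 5 were short among listed genes, whose median was 1344 bases. Gpx1 was longer than 12.5% of them, and the other 4 genes were longer than 1.25% to 3.12%.

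**Figure D1:**
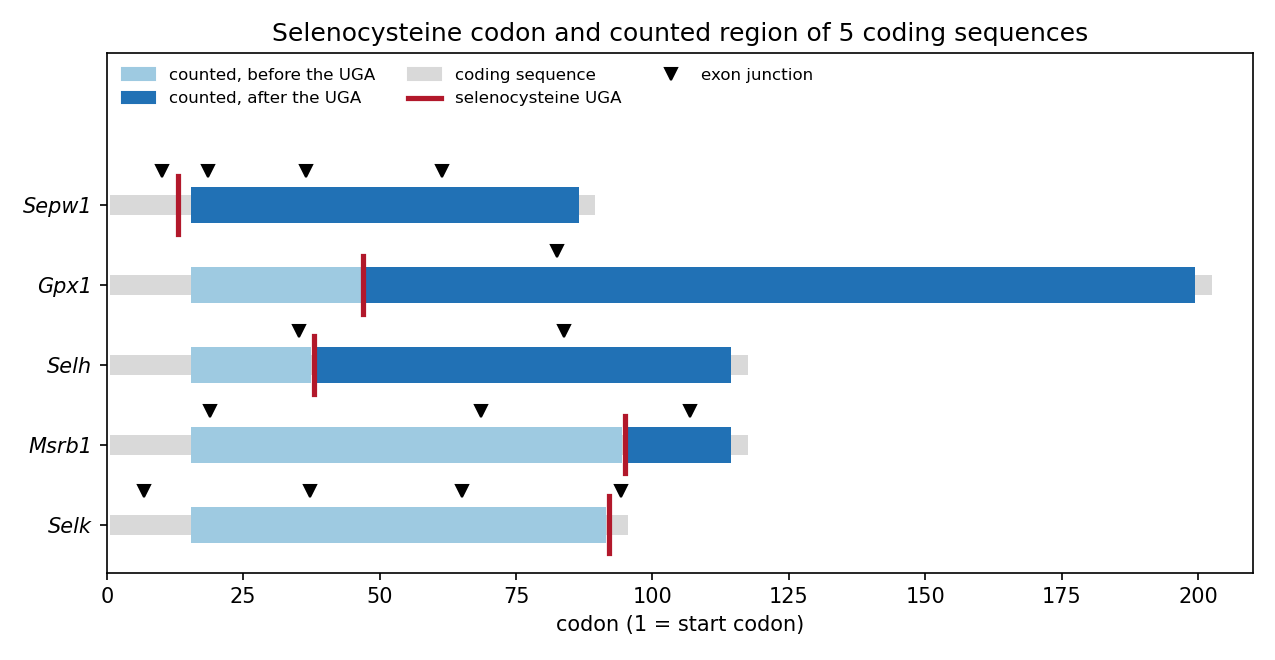
Coding sequences of the 5 genes drawn to scale, with codon number from the start codon on the horizontal axis. Blue bars are the region counted per the study's methods, light before and dark after the selenocysteine UGA (red line), grey is the rest of the coding sequence, and triangles are exon junctions. The counted part of Sepw1 lies wholly after its UGA at codon 13, and that of Selk ends with its UGA at codon 92.

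The UGA divided this region very differently. In Sepw1 the UGA lay within the 15 codons left out, so that 0 counted codons came before it and 71 after it. In Selk the reverse held, with 76 counted codons before the UGA, the UGA as the last codon of the region and 0 codons after it. A footprint counted for Sepw1 was hence on codons after the UGA, while for Selk a ribosome that would end at the UGA and one that would read through it cannot be told apart. The remaining 3 genes had counted codons on both sides. Of the codons counted in Gpx1, 31 came before and 152 after the UGA, or 83.1% after it. In Selh there were 22 before and 76 after, or 77.6% after it. In Msrb1 the balance was turned, with 79 before and 19 after, or 19.4% after it. Selh and Msrb1 thus had regions of the same length, 99 codons, with the UGA near opposite ends. In the shorter region, which has the deposited length if a start and a stop codon were left out as well, the codons before and after the UGA were 30 and 151 in Gpx1, 21 and 75 in Selh and 78 and 18 in Msrb1. That region held 69 codons of Sepw1, all after the UGA, and 75 of Selk, all before it.

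**Figure D2:**
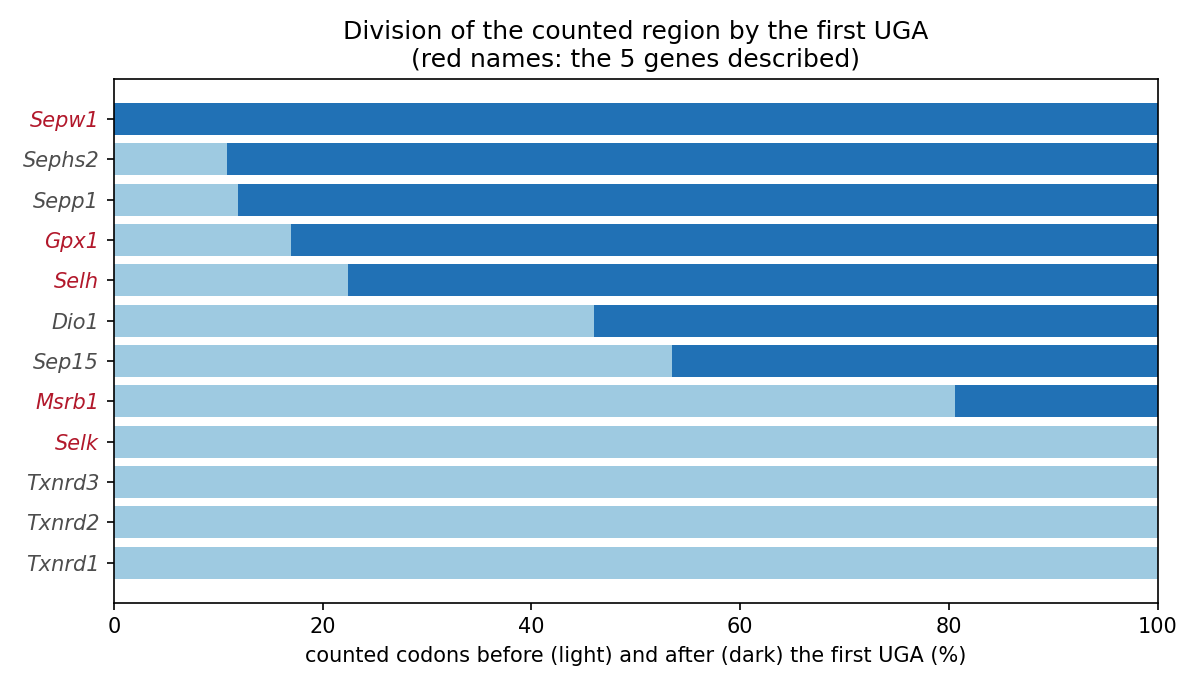
Share of the counted codons before (light) and after (dark) the first UGA, in percent, for the 12 selenoprotein genes with a line and a matched coding sequence. Sepw1 has all counted codons after the UGA, whereas Selk and the 3 thioredoxin reductases have all of them before it.

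Among the 7 other selenoprotein genes with a line and a matched coding sequence, 4 had counted codons on both sides of the first UGA and 3, the thioredoxin reductases Txnrd1, Txnrd2 and Txnrd3, had them only before it. None of the 7 had them only after it, as Sepw1 did. The annotated coding sequences of the thioredoxin reductases do not have the length of the isoforms the authors counted, and in those annotated the UGA is the last amino acid codon but 1. For Vimp (Sels) no coding sequence was matched.

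The 5 genes were spread widely over the abundances in the table. Abundance is given as CPM, counts scaled to a library of 1000000 footprints, and on its log2 scale. Gpx1 had a log2 CPM of 9.28, or 622 CPM, which was higher than 97.7% of listed genes and ranked 175 of 7500. Msrb1 had 8.14, or 283 CPM, and was above 95.1% of genes. Both stood far above the median log2 CPM of the table, 3.95. The CPM of all listed genes summed to 85.7% of 1000000, so genes without a line may hold footprints too, abundant ones among them. Ranks and percentages of genes are hence among listed genes only.

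Selk, with a log2 CPM of 3.81 or 14.0 CPM, lay just below that median and above 47.2% of genes. Sepw1 and Selh stood near the lower end, Sepw1 with a log2 CPM of 1.46 or 2.74 CPM, above 10.8% of genes, and Selh with 1.02 or 2.03 CPM, above 5.35%. The gene of lowest abundance in the table had 1.12 CPM, and edgeR by default includes in this average a small count added to every gene, so the levels of Sepw1 and Selh are the least certain of the 5. With the lowest listed value taken off every gene, the most that this added count can be, 1.62 CPM were left for Sepw1 and 0.910 for Selh, against 621 for Gpx1. The 268 listed genes of up to 300 bases had a median log2 CPM of 3.81, against 3.95 for all listed genes. Because the authors' filter left out genes with few counts, these medians cannot show how length and abundance go together.

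**Figure D3:**
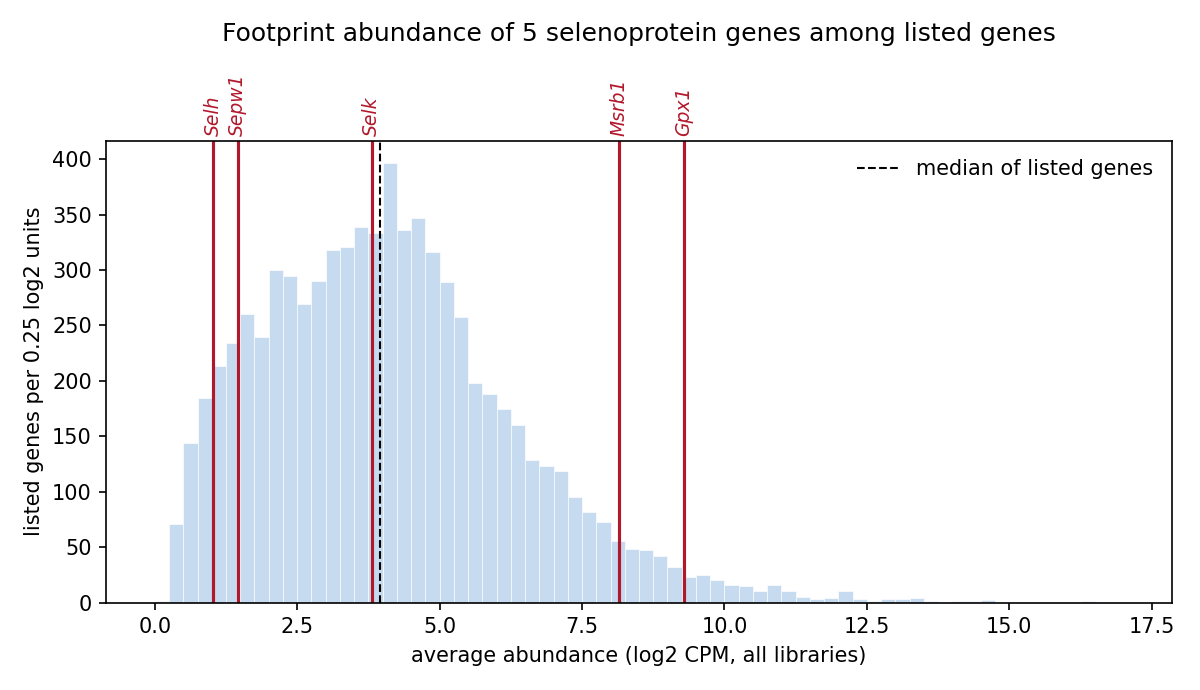
Number of listed genes (vertical axis) by average log2 CPM over all libraries (horizontal axis), with red lines at the 5 genes and a dashed line at the median of 3.95. Selh and Sepw1 lie at the lower end at 1.02 and 1.46, Selk near the median at 3.81, and Msrb1 and Gpx1 in the upper tail at 8.14 and 9.28.

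Levels of different genes are comparable only per length, so CPM was divided by the deposited length. Even so, the share of counted codons after the UGA runs from 0% in Selk to 100% in Sepw1. The ratios below therefore compare different mixes of codons before and after the UGA. On this scale Gpx1 had 1139 CPM per 1000 bases, the highest of the 13 selenoprotein genes with a line and above 98.9% of all listed genes. Msrb1 followed with 972, above 98.7%. The level of Gpx1 was 1.17 times that of Msrb1 per length, and without values per mouse the error of this ratio is not known. Both exceeded Sepp1, the selenium carrier of plasma that the liver secretes. Sepp1 had the highest CPM of the selenoprotein genes with a line (771) but 712 CPM per 1000 bases.

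Selk had 62.2 CPM per 1000 bases and moved from below the median of listed genes to above 82.2% of them. Sepw1, with 13.3, moved to above 54.1%, and Selh, with 6.99, to above 39.0%. The order of the 5 genes was Gpx1, Msrb1, Selk, Sepw1, Selh on both scales. Per length, Gpx1 exceeded Selk by 18.3 times, Sepw1 by 86.0 times and Selh by 163 times. Msrb1 and Selh, whose deposited lengths are equal, differed by 139 times, or 7.12 on the log2 scale. Sepw1 and Selh were the closest neighbours at the low end, at 1.90 times per length, and both were close to the lowest CPM listed. Each of these ratios compares averages over both diets. Where the diets move 2 genes by different amounts, the ratio within either diet differs from the one given, and it was not computed here.

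**Figure D4:**
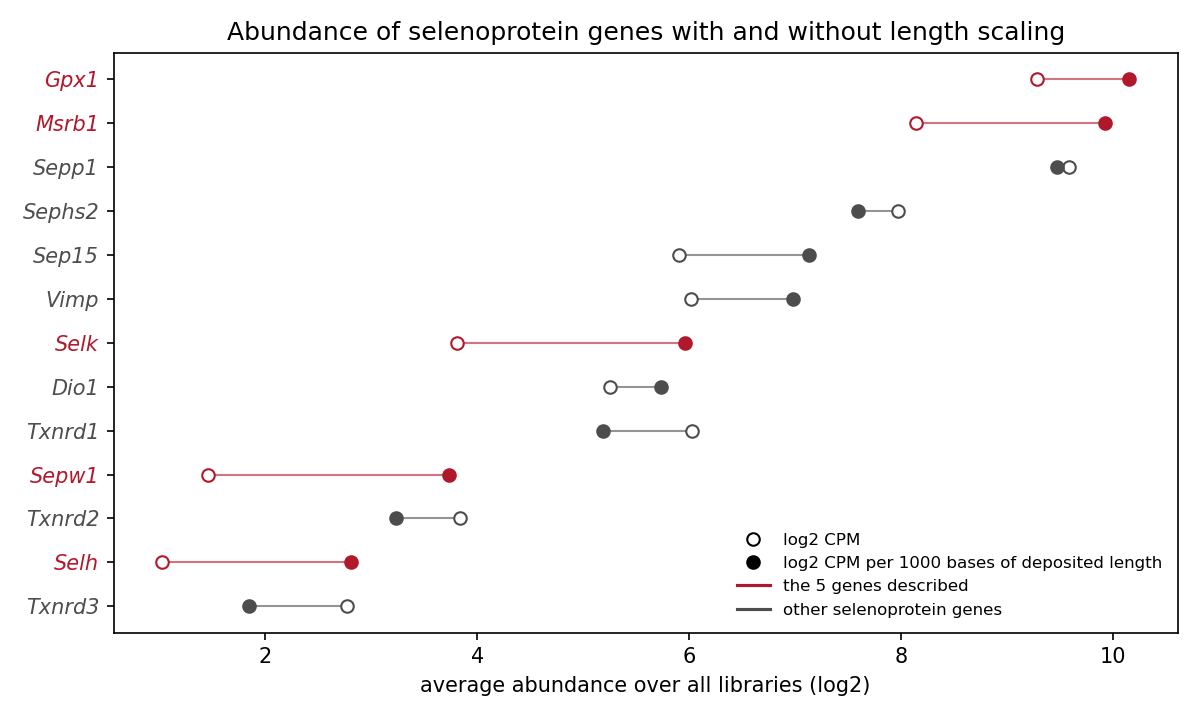
Average log2 CPM (open circles) and log2 CPM per 1000 bases of deposited length (filled circles) of the 13 selenoprotein genes with a line, ordered by the second, with the 5 genes in red. Scaling to 1000 bases raises any gene shorter than that, which holds for the 5 genes and also for Vimp, Sep15 and Dio1. Gpx1 at 10.15 and Msrb1 at 9.92 have the highest values per length.

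Of 24 selenoprotein genes looked up, 13 had a line, and the other 11 were not analysed here. Gpx4 is not among the 13. The paper nevertheless reports liver footprints on Gpx4, from a separate alignment to selenoprotein mRNAs. A missing line thus need not mean a lack of footprints, and why Gpx4 had no line was not tested. Shares, ranks and medians of selenoprotein genes are hence among those with a line only. The 5 genes held 42.1% of the summed CPM of the 13, Gpx1 alone 28.3%. Within the 5, Gpx1 held 67.3% and Msrb1 30.6%, so that Selk, Sepw1 and Selh together held 2.03%. The median log2 CPM was 3.81 for the 5 genes and 5.96 for the other 8. Per 1000 bases of deposited length these log2 medians were 5.96 and 6.36, against 3.50 for all listed genes. The median deposited length was 291 bases for the 5 genes and 1191 for the other 8. These are descriptions of 1 value per gene, with no test.

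Footprints that fit more than 1 place were discarded by the authors, which would lower the count of a gene with near-identical copies. Of the 30-base windows in the counted region of each of the 5 genes, 0% occurred exactly in a transcript of another protein-coding gene. The authors' alignment allowed mismatches. With up to 2 of them, the share was 1.53% for Gpx1, mainly shared with Gpx5, 0.543% for Sepw1 and 0% for Selh, Selk and Msrb1. None of the 5 overlapped another annotated gene on either strand. The GC content of the coding sequences was 49.8% in Selk, 53.3% in Msrb1, 55.1% in Sepw1, 58.6% in Gpx1 and 59.0% in Selh, against a median of 52.5% over 7261 listed genes. Gpx1 and Selh, the highest and the lowest of the 5 in abundance, had similar GC content. A relation of GC content to abundance was not tested.

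The labelled tissue was checked against marker genes. Of 6 hepatocyte markers, 5 had a line, led by Alb, the gene of highest abundance in the table with a log2 CPM of 16.48. The marker without a line was Cps1. Markers of other liver cells also had lines. Those of Kupffer cells and macrophages (6 of 8 symbols, of which Adgre1 and Emr1 name the same gene) ranged in log2 CPM from 2.88 for Marco to 8.09 for Clec4f. Endothelial markers (4 of 4) ranged from 2.12 for Lyve1 to 7.27 for Stab2, and stellate cell markers (4 of 4) from 1.78 for Des to 7.71 for Dcn. Cholangiocyte markers (3 of 4) were low, from 0.72 for Krt7 to 2.06 for Sox9. Of 4 T cell markers, Cd4 alone had a line, at 1.16, which is near the lowest value listed. Of 4 red blood cell markers, 0 had a line. These were globin genes and Alas2, which is not a globin gene. The authors kept only uniquely aligned footprints, but why these genes had no line was not tested. The missing lines need not mean a lack of red blood cells. In whole tissue, the number of cells that hold an mRNA and its amount per cell cannot be told apart, and which cells held the footprints of the 5 genes was not tested.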

How the data were processed

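Ribosome footprints of mouse liver were sequenced in 8 libraries of 4 mice. Per the labels and the study's methods, the authors removed adapters and ribosomal RNA reads, aligned the rest with Bowtie to the longest RefSeq isoform of each gene (mm9), keeping unique hits with up to 2 mismatches, and left out the first 15 and last 3 codons. Genes above 1 CPM in 3 or more samples entered the authors' edgeR test. No version of either tool was found in the labels or methods. The deposited log2 CPM is the authors' average over all libraries. Columns of log2 fold change, fold change, p-value and FDR hold the authors' comparison of the diets and were not used. No counts per library were at hand, so no count test was run, depth is unknown, and no error accompanies a value. The other column used is the length in bases.

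Genes were matched by symbol to GENCODE M1 (NCBIM37, the assembly of mm9; Msrb1 is listed there as Sepx1), from which coding sequences, UGA codons, exons and windows were read with Python 3.11.15. The UGA codons were checked against the genome sequence, and the search for shared windows was tested on simulated data. Named genes were the 5 genes, the other selenoprotein genes with a line, the most abundant gene and the leading marker of each cell type. The genes and lists were chosen with earlier results of these data known.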

Additional observations from a re-analysis of the deposited data

How the results depend on the processing

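The alternatives for whole coding sequences in the abundance per length, for start and stop codons and for mismatches were chosen after seeing the data. With the lowest listed CPM taken off every gene, the CPM of Gpx1 exceeded that of Selh by 683 times in place of 306, and per length by 364 times in place of 163. Per length this was 165 times with the counted region as the methods state it and 177 times with the whole coding sequence. The order of the 5 genes was the same in each of these settings. Over the whole coding sequence, 5 genes in place of 3 had codons on both sides of the UGA. The largest share of windows found in another gene rose from 0% to 0.380% with 26-base windows and to 1.53% with 2 mismatches, both for Gpx1. It was 0% with 36-base windows. With listed genes limited to a log2 CPM of at least 1 or 3, 2 of the 5 genes stood above the median, as without a limit. Sepw1 and Selh were left out at 3. No paired analysis was possible because the result comes from no test and the mouse numbers differ between the diets. Abundance has no known error here, so differences as small as that between Gpx1 and Msrb1 per length have no known precision, and the levels of Sepw1 and Selh depend most on the count added by the authors' tool.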

Other observations

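Genes of a list made for the synthesis, recycling and delivery of selenocysteine varied in footprint abundance. A place in the list does not show that each gene has such a role. Of 9 looked up that encode no selenoprotein, 5 had a line, with log2 CPM from 3.59 for Secisbp2, which binds the hairpin in selenoprotein mRNAs, to 6.09 for Scly, which frees selenium from selenocysteine. The other 3, Sepsecs, Eefsec and Sephs1, lay between them. Sephs2, which makes the selenium donor for selenocysteine and is itself a selenoprotein, was higher than these 5, at 7.98 or above 94.6% of listed genes. Gpx1 and Msrb1 lay above Sephs2 and all 5 of these genes in log2 CPM, and Sepw1 and Selh below all of them. None of this is scaled by length. The order per length against the 5 non-selenoprotein genes, which can differ, was not computed.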
